A study of Danio rerio with 6 samples.

Results

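The genes described here repair broken and crosslinked DNA by homologous recombination, the Fanconi anemia pathway and end joining, together with *rad18* and *msh6*. They were chosen by name, with earlier results of these data known, as 38 zebrafish genes in 8 branches. Of these, 33 were measured by a row of the array that is annotated with exactly 1 gene symbol, among 19260 genes measured in this way. Where a gene had several such rows, the row with the highest mean over the 6 arrays was used, which applied to *fancb* and *xrcc5*, while the other 31 genes had 1 row. *rad51c*, *fancm*, *rmi2*, *xrcc6* and *polm* had no row with a single symbol and are not analysed here.

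The arrays measured RNA from whole zebrafish embryos at 5 days post fertilization (dpf), on 3 arrays of *tdp1*WT and 3 arrays of *tdp1*-/- embryos. Tdp1 removes trapped topoisomerase 1 (Top1) and other adducts from the 3′ ends of DNA. The mutant line was made with CRISPR-Cas9 and carries frameshift deletions in *tdp1* from the germ line, so all tissues carry the mutation. The alleles are named SH475 and SH476, *tdp1*-/- stands for SH475/SH475 or SH475/SH476 embryos, and which of these combinations was on each array is not given. All embryos of both genotypes had received 500 nM camptothecin (CPT), which traps Top1 on DNA, for 16 hours. No array of embryos without CPT was analysed here, so a difference between genotypes cannot be separated into one present before CPT and one that followed it. The line's background was a mix of London wild-type and nacre. Neither the number of embryos behind each array nor their parents are given, and a part of parents or background in the values was not tested.

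Homologous recombination copies the lost sequence from an undamaged sister DNA. A protein filament on the resected end searches for that copy, and Brca2, Palb2 and the BCDX2 and CX3 complexes help to build or stabilize it. It is the main route for breaks that arise when a replication fork runs into a trapped Top1. The Fanconi anemia core complex attaches ubiquitin to Fancd2 and Fanci at stalled forks, and BLM-family helicases take apart the joined DNA molecules that recombination leaves. End joining ligates broken ends without a copy, either by the classical route, through Ku, DNA-PKcs, Xrcc4 and Lig4, or through polymerase theta at short matching stretches. Most of these roles were worked out in mammalian cells or yeast.

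None of the 33 genes passed the test between the genotypes in the limma fit of the 6 arrays. A gene was called where its unadjusted p was under 0.05 and its fold change over 1.2, and 0 of 33 genes were called lower or higher, against 1.04% of all 19260 genes called lower and 0.852% called higher (1.29% and 2.28% of all 75212 rows of the array, unnamed ones included). The number of the 33 genes at an unadjusted p under 0.05 was also 0, whatever the fold, and the limma adjusted p (Benjamini-Hochberg over all rows) was 1 for each of them. At an adjusted p under 0.05, 0.0% of all rows passed. A limma model with a block for each replicate number compares same-numbered arrays, and there 2 of 33 genes were called lower, *rad54l* and *msh6*, and 0 higher, against 2.49% and 1.55% of all genes (2.48% and 3.94% of all rows). No gene passed an adjusted p under 0.05 in that fit either, where the smallest among the 33 was 0.754. In RNA from whole embryos, fewer cells of a type and less RNA per cell cannot be told apart.

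The log2 fold changes (*tdp1*-/- minus *tdp1*WT) of the 33 genes ran from -0.42 to 0.17 with a median of -0.07, and 26 of them were negative, or 78.8%. The median over all genes was 0.00 and 51.4% were negative. A fold over 1.2, at any p, was reached by 7 genes on the lower side (*rad54l*, *fanca*, *fanci*, *brip1*, *blm*, *polq* and *msh6*) and by 0 on the higher side, against 6.4% and 4.87% of all genes. For 18 of the 33 genes the log2 fold change was within 0.1 of 0. Of the 33 genes, 10 had a mean below the median of all rows of the array, among them *rad54l*, *fanci* and *polq*.

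**Figure D1:**
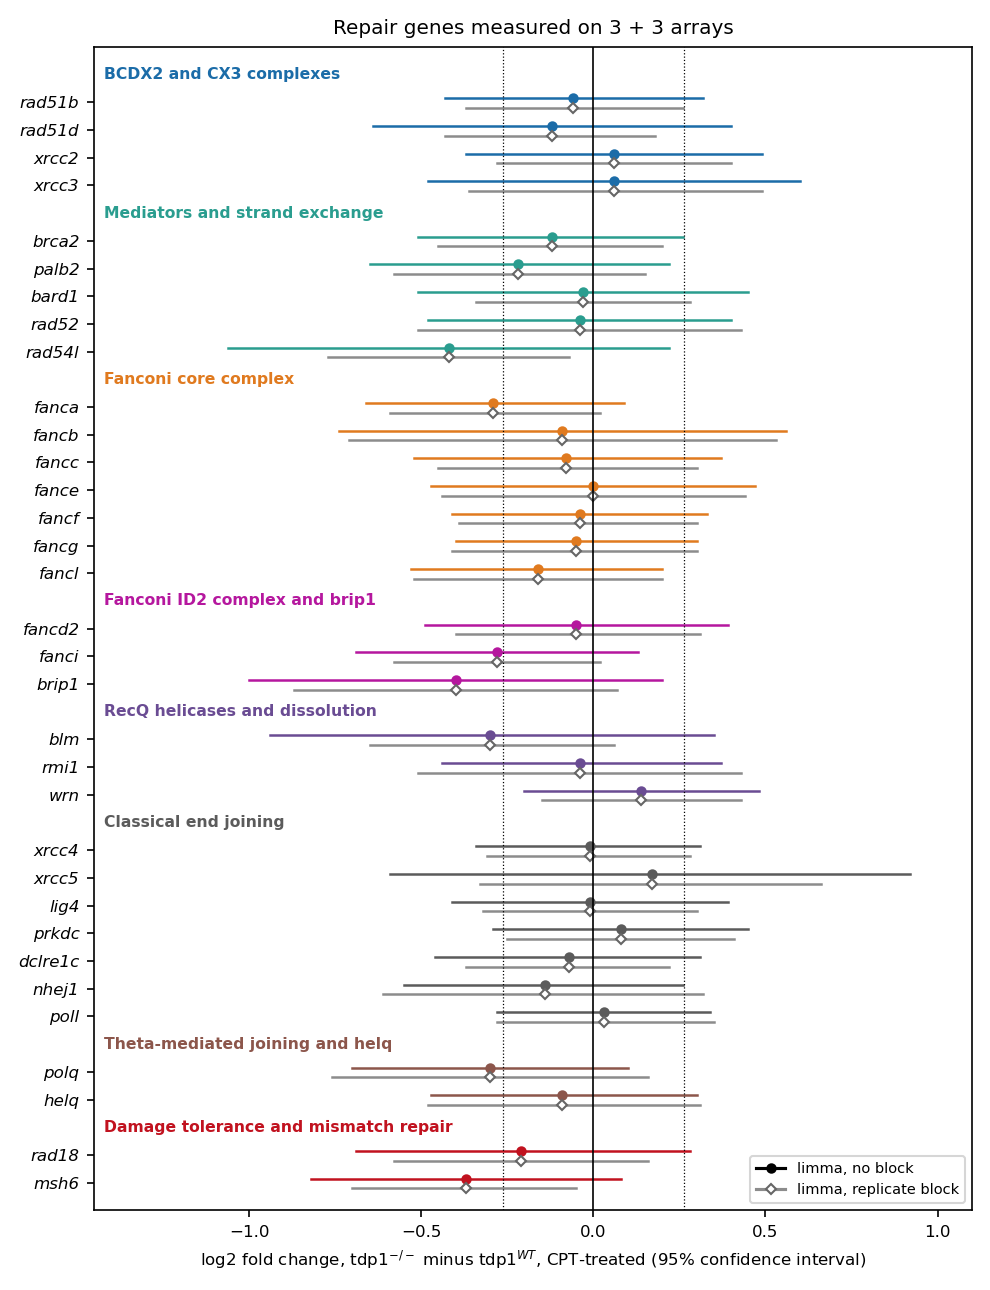
Log2 fold change of each of the 33 repair genes (horizontal axis, *tdp1*-/- minus *tdp1*WT under CPT), grouped by branch, with 95% confidence intervals from limma without a block (filled circles) and with the replicate block (open diamonds); dotted lines mark 1.2-fold. All intervals without the block cross 0, and with the block those of *rad54l* (-0.77 to -0.07) and *msh6* (-0.70 to -0.05) do not.

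The 4 measured subunits of the BCDX2 and CX3 complexes, which assist the filament, showed no shared direction. Their log2 fold changes were -0.06 for *rad51b*, -0.12 for *rad51d* and 0.06 for both *xrcc2* and *xrcc3*, and the median was 0.00. *rad51d*, the subunit with the smallest p, measured 4.59, 4.55 and 5.16 on the log2 scale in *tdp1*WT and 4.44, 4.56 and 4.95 in *tdp1*-/-. Its values were higher on the third array of both genotypes, and the genotypes overlapped. The limma 95% interval of its log2 fold change was -0.64 to 0.40, and without *tdp1*WT replicate 3 the sign turned, to 0.07.

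In the branch of mediators and strand exchange, all 5 log2 fold changes were negative, with a median of -0.12. The smaller ones were -0.03 for *bard1*, -0.04 for *rad52*, -0.12 for *brca2*, which helps to build the filament on resected DNA, and -0.22 for *palb2*. In mammals, Bard1 is the partner of Brca1, and Palb2 joins Brca2 to Brca1. *rad54l* encodes a motor protein that helps the filament invade the copy, and it had the lowest log2 fold change of the 33 genes. It measured 4.66, 4.58 and 5.15 in *tdp1*WT and 4.32, 3.93 and 4.89 in *tdp1*-/-. Each *tdp1*-/- array was below the *tdp1*WT array of the same number, but the third *tdp1*-/- array was above the first and the second *tdp1*WT arrays, so the genotypes overlapped.

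The log2 fold change of *rad54l* was -0.42 ± 0.27 (SE, n = 3 arrays a genotype), with a 95% interval of -1.06 to 0.22. With the replicate block the SE was 0.13, the interval -0.77 to -0.07 and the limma adjusted p 0.754. The differences within pairs 1, 2 and 3 were -0.35, -0.65 and -0.26. The exact permutation test over the 6 arrays gave a two-sided p of 0.3, where the smallest possible is 0.1. The estimate was -0.19 without *tdp1*-/- replicate 2, -0.24 without *tdp1*WT replicate 3 and -0.68 without *tdp1*-/- replicate 3, and *rad54l* was called only in the last of these. In the block fit, the call was lost without pair 1 and without pair 2. The estimate was -0.46 without pair 1, with a wider interval of -0.97 to 0.06 on fewer arrays, and -0.30 without pair 2.

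Of the 7 measured genes of the Fanconi core complex, 6 had a negative log2 fold change and the median was -0.08. *fanca*, a subunit of the complex, was the only one of the 33 genes whose genotypes did not overlap, against 4.08% of all genes with every *tdp1*-/- value lower and 3.64% with every one higher. It measured 5.57, 5.48 and 5.72 in *tdp1*WT and 5.38, 5.07 and 5.46 in *tdp1*-/-. The highest *tdp1*-/- value lay just under the lowest *tdp1*WT value, and the second *tdp1*-/- array stood lowest. Its log2 fold change was -0.29, with an interval of -0.66 to 0.09 and, with the block, -0.59 to 0.02. The two-sided p of the exact permutation test was 0.1, the smallest that this number of arrays allows. Without *tdp1*-/- replicate 2 the log2 fold change was -0.17.

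The other core genes lay nearer to 0. *fancl*, the ubiquitin ligase of the complex, had a log2 fold change of -0.16, *fancb* -0.09, *fancc* -0.08, *fancg* -0.05, *fancf* -0.04 and *fance* 0.00. For *fancb* the *tdp1*-/- arrays spread far more than the *tdp1*WT arrays, with an SD of 0.58 against 0.04, since the first *tdp1*-/- array was at 4.12 and the others at 5.01 and 5.22. The other row of *fancb* gave -0.17, and neither row was called.

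For the ID2 complex, which the core complex marks with ubiquitin, and the helicase *brip1*, whose mammalian product binds Brca1, all 3 log2 fold changes were below 0. None was called, and their median was -0.28. *fancd2* had a log2 fold change of -0.05. *fanci* measured 4.79, 4.53 and 4.91 in *tdp1*WT and 4.40, 4.29 and 4.70 in *tdp1*-/-, a log2 fold change of -0.28 with an interval of -0.69 to 0.13. *tdp1*-/- replicate 3 lay above *tdp1*WT replicate 2, and the differences within the 3 pairs were -0.39, -0.25 and -0.21. With the block the interval of *fanci* was -0.58 to 0.02.

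*brip1*, singled out after its values were seen, measured 5.42, 5.04 and 5.07 in *tdp1*WT and 5.09, 4.22 and 5.02 in *tdp1*-/-. A single array, the second of *tdp1*-/-, stood apart from the other 5, and it set most of the log2 fold change of -0.40, which was -0.12 without it. The interval over all arrays was -1.0 to 0.20.

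**Figure D2:**
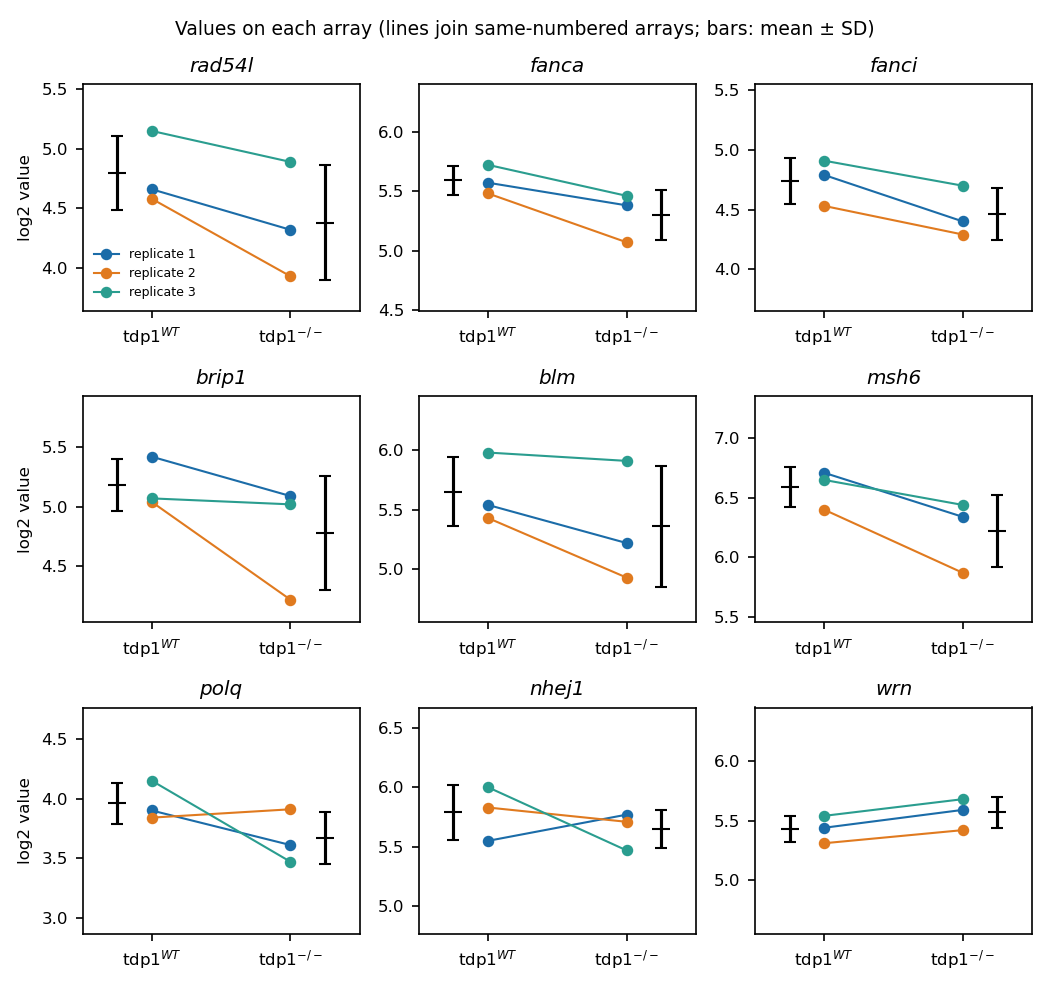
Log2 values of 9 of the repair genes on each array (vertical axis, 1 panel a gene, each with the same span), with lines joining same-numbered *tdp1*WT and *tdp1*-/- arrays and black bars giving the mean ± SD of 3 arrays. The lines of *rad54l*, *fanca*, *fanci*, *brip1*, *blm* and *msh6* all slope down, those of *wrn* all slope up by 0.11 to 0.16, and those of *polq* and *nhej1* go both ways.

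The RecQ helicases *blm* and *wrn* lay on opposite sides of 0. *blm*, whose product dissolves joined DNA molecules together with Rmi1, measured 5.54, 5.43 and 5.98 in *tdp1*WT and 5.22, 4.93 and 5.91 in *tdp1*-/-. The third arrays were the highest of both genotypes and the ranges overlapped. Its log2 fold change was -0.30 with an interval of -0.94 to 0.35, and the pairs differed by -0.32, -0.50 and -0.06. Leaving out *tdp1*-/- replicate 2 gave -0.08, and leaving out *tdp1*-/- replicate 3 gave -0.57 with a call. *rmi1* had a log2 fold change of -0.04.

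*wrn* was the only one of the 33 genes higher in all 3 pairs, by 0.16, 0.11 and 0.14, against 14.4% of all genes. It was singled out after its values were seen. It measured 5.44, 5.31 and 5.54 in *tdp1*WT and 5.59, 5.42 and 5.68 in *tdp1*-/-, ranges that overlapped. The log2 fold change of 0.14 had an interval of -0.20 to 0.48 and, with the block, -0.15 to 0.43.

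Classical end joining was the branch nearest to 0 besides the BCDX2 and CX3 complexes. Its 7 measured genes had a median of -0.01, with 4 of them negative, and none reached 1.2-fold. *xrcc4* and *lig4*, which together make up the ligase, had log2 fold changes of -0.01 each. *prkdc*, the DNA-PK catalytic subunit, was at 0.08, *dclre1c*, the Artemis nuclease, at -0.07, and the gap-filling polymerase *poll* at 0.03. Their intervals were -0.34 to 0.31 for *xrcc4*, -0.41 to 0.39 for *lig4*, -0.29 to 0.45 for *prkdc*, -0.46 to 0.31 for *dclre1c* and -0.28 to 0.34 for *poll*, so changes of 1.5-fold in either direction lay outside all of them.

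*nhej1*, which encodes the ligase cofactor XLF, had the smallest p of the classical branch. It measured 5.55, 5.83 and 6.0 in *tdp1*WT and 5.77, 5.71 and 5.47 in *tdp1*-/-. The 3 pairs disagreed in direction, at 0.22, -0.12 and -0.54, and the log2 fold change was -0.14 with an interval of -0.55 to 0.26. *xrcc5*, which encodes the Ku80 subunit, had the largest SE of the 33 genes without the block, 0.32, while with the block that was *fancb*, at 0.24. The values of *xrcc5* were 5.13, 4.43 and 5.67 in *tdp1*WT and 5.02, 5.07 and 5.63 in *tdp1*-/-, a log2 fold change of 0.17 with an interval of -0.59 to 0.92. The pairs differed by -0.11, 0.64 and -0.04, and the sign turned without *tdp1*WT replicate 2 or without *tdp1*-/- replicate 3. Its other row gave -0.22, so its direction depends on the row and on single arrays.

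*polq*, which encodes polymerase theta, measured 3.90, 3.84 and 4.15 in *tdp1*WT and 3.61, 3.91 and 3.47 in *tdp1*-/-. The second *tdp1*-/- array lay inside the *tdp1*WT range and the other *tdp1*-/- arrays below it. The log2 fold change was -0.30 with an interval of -0.70 to 0.10, and the pairs differed by -0.29, 0.07 and -0.68. *polq* was called without *tdp1*-/- replicate 2, at -0.42, and in neither fit of all 6 arrays. *helq*, a helicase related to the helicase part of polymerase theta, had a log2 fold change of -0.09.

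The mismatch repair gene *msh6*, whose product takes part in recognizing mispaired bases, had the smallest p of the 33 genes without the block. It measured 6.71, 6.40 and 6.65 in *tdp1*WT and 6.34, 5.87 and 6.44 in *tdp1*-/-. The ranges met at the third *tdp1*-/- array, which lay just above *tdp1*WT replicate 2. For *msh6* the log2 fold change came to -0.37 with an interval of -0.82 to 0.08, and the pairs differed by -0.38, -0.53 and -0.21. With the block the interval was -0.70 to -0.05 and the limma adjusted p 0.767. That call was lost without pair 1, at -0.37 with a wider interval of -0.87 to 0.13, and without pair 2, at -0.29. Leaving out *tdp1*-/- replicate 2 without the block gave -0.20. *rad18*, a ubiquitin ligase that starts bypass of damaged bases, had a log2 fold change of -0.21 with an interval of -0.69 to 0.28.

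Within same-numbered pairs, the median log2 difference over the 33 genes was -0.16 in pair 1, 0.00 in pair 2 and -0.06 in pair 3, with 24, 16 and 22 genes negative. Over all genes these medians were -0.02, 0.01 and 0.00. Pair 2 held the largest differences of *rad54l*, *fanca*, *brip1*, *blm* and *msh6*, although the median over all 33 genes was 0.00 there. Of the 33 genes, 7 were lower in all 3 pairs, or 21.2%, against 16.8% of all genes. Besides 6 of the 7 genes past 1.2-fold these included *dclre1c*, whose differences were -0.17, -0.04 and -0.01.

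**Figure D3:**
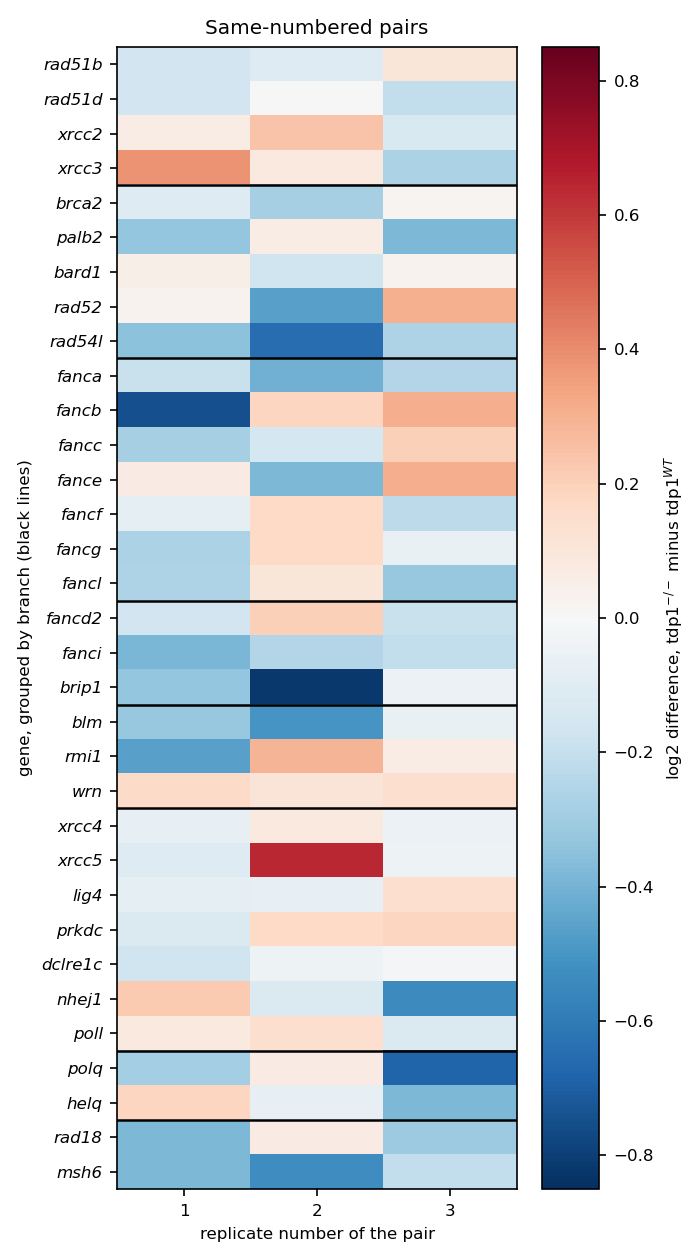
Log2 difference (colour, *tdp1*-/- minus *tdp1*WT) of each of the 33 genes in the 3 pairs of same-numbered arrays (columns), with black lines between branches. Pair 1 holds 24 negative genes and pair 2 holds 16, with the deepest value, -0.82, at *brip1* in pair 2.

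The values moved with single arrays. *tdp1*WT replicate 3 was the highest of the 6 arrays for 17 of the 33 genes, or 51.5%, against 21.1% of all genes, and the lowest for 0. *tdp1*-/- replicate 1 was the lowest for 9 genes, or 27.3%, against 17.9% of all genes. *tdp1*-/- replicate 2 was the lowest for 13 genes, or 39.4%, against 26.5% of all genes. It was also the lowest for 6 of the 7 genes past 1.2-fold. Those 7 were picked by a low *tdp1*-/- mean, so their count cannot be set against the share of all genes. Without *tdp1*WT replicate 3 the median log2 fold change was -0.02 with 20 genes negative, and without *tdp1*-/- replicate 3 it was -0.16 with 30 genes negative.

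Markers of proliferating cells were lowest on *tdp1*-/- replicate 2 as well. Of 29 (of 35 listed) measured proliferation genes, 26 had a negative log2 fold change and the median was -0.22. Over all genes, 51.4% were negative. Without the block, 5 of the proliferation genes were called lower (*cdk1*, *cdk2*, *aurka*, *tyms* and *tk1*) and 0 higher, against 1.04% and 0.852% of all genes. With the block 7 were called lower (*mcm3*, *cdk1*, *rrm1*, *tyms*, *tk1*, *foxm1* and *kif11*), against 2.49% of all genes. The mean log2 value of the list was 5.75 to 6.01 on the *tdp1*WT arrays and 5.49 to 5.79 on the *tdp1*-/- arrays. The count without the block was 0 without *tdp1*WT replicate 3 or without *tdp1*-/- replicate 2, and 1 without *tdp1*WT replicate 1. The median deviation from the gene mean was -0.29 for the proliferation genes and -0.13 for the 33 repair genes on *tdp1*-/- replicate 2. On *tdp1*-/- replicate 1 it was -0.06 and -0.13, and on *tdp1*-/- replicate 3 it was -0.01 and 0.10. On *tdp1*WT replicates 1, 2 and 3 it was 0.24, -0.05 and 0.17 for the proliferation genes. For the repair genes it was 0.04, -0.07 and 0.24 there. The part of proliferating cells, or of these arrays, in the values of the repair genes was not tested.

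**Figure D4:**
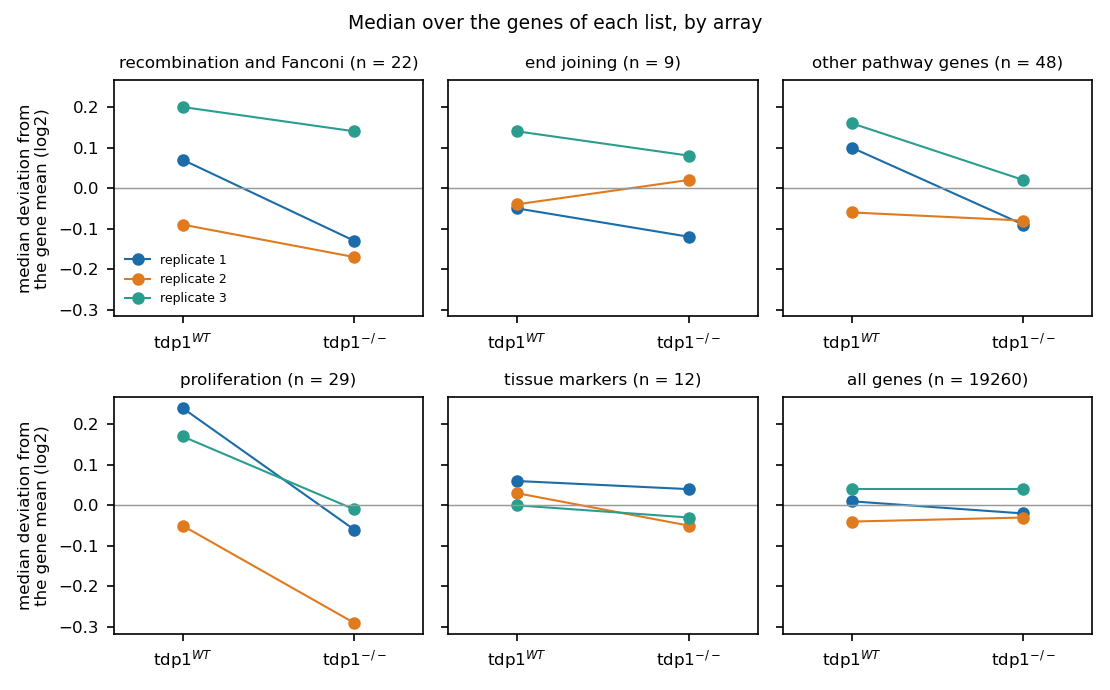
Median deviation from each gene's mean over the 6 arrays (vertical axis, log2) for 6 groups of genes, with lines joining same-numbered *tdp1*WT and *tdp1*-/- arrays. The recombination and Fanconi genes stand at 0.07, -0.09 and 0.20 on *tdp1*WT replicates 1, 2 and 3. On *tdp1*-/- replicates 1, 2 and 3 they stand at -0.13, -0.17 and 0.14, so the genotypes overlap. All genes together stay within -0.04 to 0.04.

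Another 55 genes of these pathways were listed, and 48 of them were measured. Their median log2 fold change was -0.08, 34 were negative, and 3 were called lower and 0 higher without the block, where 1.04% of all genes were called lower. *rpa2*, a subunit of the protein that covers single-stranded DNA, measured 7.49, 7.13 and 7.42 in *tdp1*WT and 6.81, 6.56 and 7.0 in *tdp1*-/-, a log2 fold change of -0.56. *rad50*, part of the complex that starts resection, measured 6.33, 6.27 and 6.36 against 6.03, 5.86 and 5.94, a log2 fold change of -0.38. *faap24*, the partner of Fancm in the Fanconi pathway, measured 5.91, 5.78 and 5.79 against 5.48, 5.29 and 5.46, a log2 fold change of -0.42. The limma adjusted p was 1 for each of these 3 genes. Their genotypes did not overlap, nor did those of *faap100*, at -0.37, on the lower side and *hrob*, at 0.20, on the higher side, against 4.08% and 3.64% of all genes.

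With the block, 7 of the 48 genes were called lower, against 2.49% of all genes. Besides the same 3 these were *mcm9*, a helicase of the MCM family, at -0.56, *ube2t*, the ubiquitin-conjugating partner of Fancl, at -0.40, *rbbp8*, which encodes the resection factor CtIP, at -0.34, and *rpa1* at -0.33. None of the 7 passed a limma adjusted p under 0.05, and that of *rbbp8* was 0.77. The authors' qPCR of *rbbp8* found no significant difference between the genotypes, with or without CPT. The count without the block was 0 without *tdp1*WT replicate 1, 2 without *tdp1*WT replicate 3 or without *tdp1*-/- replicate 2, and 5 without *tdp1*-/- replicate 3. Of 15 measured genes of mismatch repair and damage tolerance, 9 were negative and 0 were called without the block. With the block 1 was called lower, against the same 2.49% of all genes. It was *polh*, a polymerase that copies past damaged bases, at -0.35.

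**Figure D5:**
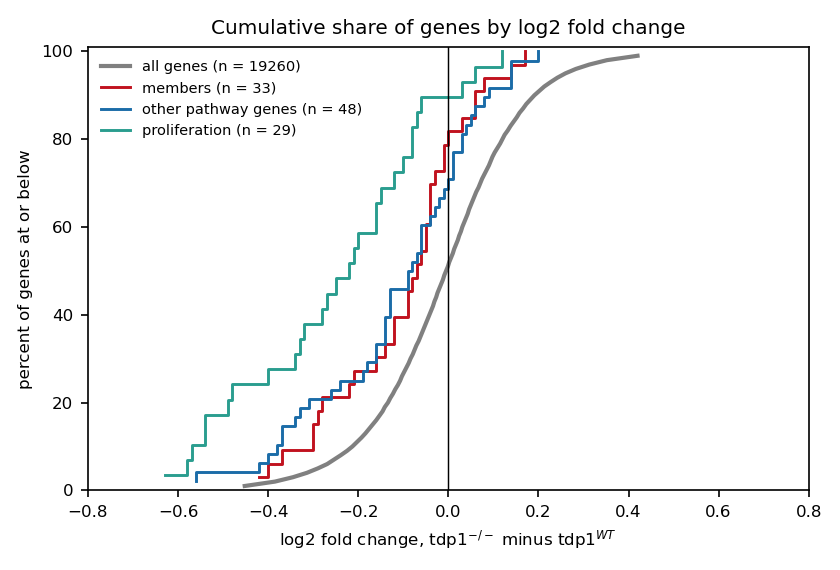
Cumulative percent of genes (vertical axis) at or below each log2 fold change (horizontal axis, *tdp1*-/- minus *tdp1*WT) for the 33 repair genes, the 48 other pathway genes, 29 proliferation genes and all 19260 genes. The medians are -0.07, -0.08, -0.22 and 0.00, so the repair curves lie between that of all genes and that of the proliferation genes near 50 percent.

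The mutated gene *tdp1* measured 5.59, 5.34 and 5.85 in *tdp1*WT and 5.18, 5.17 and 5.24 in *tdp1*-/-, with no overlap and a log2 fold change of -0.40, and it was called lower in both fits. None of the 33 genes lies on chromosome 17, which carries *tdp1*. Array medians ran from 4.66 to 4.87 and correlations between arrays from 0.969 to 0.988. Of 15 tissue markers, 12 were measured, with a median log2 fold change of -0.01. The erythrocyte globin *hbae1.1* was called lower in both fits, at -0.43, and the glial gene *gfap* with the block only, at -0.45. Of all genes, 1.04% were called lower without the block and 2.49% with it. The mean log2 value of the 12 markers was 9.04 to 9.06 in *tdp1*WT and 8.93 to 9.04 in *tdp1*-/-, and their part in the repair values was not tested.

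The precision of the 6 arrays sets what these values can show. The SE of the log2 fold change ran from 0.13 to 0.32 over the 33 genes, with a median of 0.17, and from 0.11 to 0.24 with the block. The 95% interval without the block lay inside 1.5-fold in both directions for 20 of the 33 genes and inside 2-fold for 31. It reached a 1.5-fold lower level for 12 genes and a 1.5-fold higher level for 2, so a difference of that size lay within their intervals. With the block the interval lay inside 1.5-fold for 24 genes and inside 2-fold for all 33, and it reached 1.5-fold lower for 8 and higher for 1, *xrcc5*.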

How the data were processed

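The RNA of 6 samples, 3 of each genotype, was labelled by the authors with the Affymetrix WT plus protocol and processed in the Transcriptome Analysis Console, and the submitters' processing notes name RMA. The table deposited by the authors gives a log2 value for each of 75212 rows on each array; RMA corrects background, normalizes by quantiles and summarizes probes, in that order. The array's genome build is not given in the sources used, and the table holds no detection calls. Samples were grouped by the genotype and replicate number in the labels.

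Symbols came from the platform annotation (20806 rows with 1 symbol, 855 with several, 53551 with none) and 20323 were updated by Entrez ID through the RefSeq gene table of GRCz12tu, used also for chromosomes. One row was kept for each of 19260 genes, the row with the highest mean. Listed genes absent under one spelling were matched under the spelling of that table (*mre11a*, *wdr48b*).

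From the deposited log2 values, limma 3.58.1 in R 4.3.3 (lmFit and eBayes, no block) gave log2 fold changes, 95% intervals and Benjamini-Hochberg adjusted p-values over all rows, after being tested on simulated data. The call threshold (unadjusted p under 0.05, fold over 1.2) takes its fold from the study's methods. The methods state 3 biologically independent experiments. Same-numbered arrays deviated together from the mean of their genotype (r = 0.203, 0.216 and 0.29 over all rows). Of the 6 arrays, 6 correlated best with their own number. Deviations within a genotype cancel out, so these 6 results are not independent of each other. The numbers were taken to pair the arrays, and a replicate block was fitted beside the fit without it. Each gene was also given an exact permutation test. The p-values measure only the spread between these arrays, whose number limits their precision.

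The genes and lists were chosen with earlier results of these data known. Among the 33 genes, values on every array are given for those called in either fit, those without overlap, and the one of each branch with the smallest p. Others given in this way are said to have been chosen after seeing them. Of the other lists, genes called in either fit are named; *faap100* and *hrob* were added after their values were seen. *xrcc5* was added after its rows were seen to differ. Alternatives were the block, further quantile normalization, median centring, array weights, the mean of all rows of a gene, leaving out dim rows, counting identical rows once, and leaving out each array. Sequences of promoters and proteins were planned and are not used here. Some genes of these pathways are not reported here.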

Additional observations from a re-analysis of the deposited data

How the results depend on the processing

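Of the 33 genes, 0 were called higher and 0 passed an adjusted p under 0.05 under every alternative run. Called lower were 0 without the block, 2 with the replicate block, and 0 to 2 when 1 array was left out (1, *polq*, without *tdp1*-/- replicate 2 and 2, *rad54l* and *blm*, without *tdp1*-/- replicate 3). Chosen after seeing the data, further quantile normalization with the replicate block called 3 (*rad54l*, *fanci* and *msh6*), and the replicate block without replicate 3 of both genotypes called 3 (*rad54l*, *brip1* and *msh6*), while without replicate 1 or without replicate 2 of both genotypes it called 0. The median log2 fold change was -0.16 to -0.02 and 20 to 30 genes were negative when 1 array was left out. Leaving out dim rows, those with a mean below the median of all rows, removed 10 of the 33 genes and left 16 of 23 negative. Among the genes removed were *rad54l*, *fanci*, *polq* and *rad51d*. With 1 array left out, 3 to 8 of the 33 genes turned sign, all of them within 0.17 of 0 over all arrays. Among the 8 genes followed across the other alternatives too, the sign turned for *rad51d* without *tdp1*WT replicate 3 (0.07, in a range of -0.27 to 0.07 with 1 array left out), and for *nhej1* with the replicate block without replicate 3 of both genotypes (0.05). Over all rows, 970 were called lower and 1718 higher. These counts were 1864 and 2966 with the replicate block, and 1548 and 1566 with further quantile normalization. They were 1277 and 1669 with median centring, and 2472 and 2516 with both quantile normalization and the block. Leaving out dim rows gave 600 and 740, but of 37606 rows in place of 75212. The counts without dim rows therefore cannot be set directly against those of the other fits. The number called higher was 1005 without *tdp1*WT replicate 1 and 3799 without *tdp1*-/- replicate 1. Lower and higher counts were 1218 and 1439 without *tdp1*-/- replicate 2, and 1275 and 1397 without *tdp1*-/- replicate 3. In the block fit they were 1590 and 3446 without replicate 1 of both genotypes, 2123 and 2180 without replicate 2, and 1363 and 2267 without replicate 3. At an adjusted p under 0.05, 7 rows passed with quantile normalization, 8 with median centring and 9 with array weights, none of them of the 33 genes. The cause of these shifts was not tested.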
